A study of Mus musculus with 8 samples.

Results

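The tissue kallikreins Klk1, Klk7, Klk8, Klk10, Klk11, Klk13, Klk14 and Klk15 and the bradykinin receptors Bdkrb1 and Bdkrb2 were followed in mucosa of mouse rectum and colon. The 10 genes were taken by name, and their probes were found through the transcript accession printed for each spot. Of these genes, 9 had a probe on the array, and no probe was matched to Klk13. The 9 genes had 12 probes among 40963, and the array named 16309 genes in all. Of the 12 probes, 7 probes of 6 genes were well above background on at least 4 of the 8 arrays and were tested, as were 26263 probes in all. A further 3 probes were well above background on no array.

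Kallikreins are secreted serine proteases encoded side by side on chromosome 7. Klk1, the true tissue kallikrein, cuts kinin peptides from kininogens. Kinins act through the receptors B1 and B2: B2 is present in many resting tissues and answers to intact bradykinin, while B1 is known to be induced by injury and inflammation and answers to kinins that a carboxypeptidase has shortened. In the bowel, kinins are known for effects on chloride secretion, muscle tone, blood flow and pain. Klk7, Klk8 and Klk14 are known from skin, where they cut the junctions between cells that are about to be shed.

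The 8 arrays covered both tissues of 4 mouse groups: IL18ko stress, IL18ko control, WT stress and WT control. IL18ko mice lack the gene for the cytokine interleukin 18, and WT mice are wild type. Brothers had shared a cage of 5 until 10 to 12 weeks of age. For the stress, 3 of them were then housed alone, and the other 2 served as controls. The labels give the length of isolation as 8 days in one place and as 16 days in another. By the design text, control RNA was taken before isolation, so that isolation and the added age cannot be told apart. Rectum was the last 7 mm before the anus, and colon was the stretch from 2.5 to 3.5 cm after the ileocecum. Each array held RNA pooled from 5 mice, and no group had a second array. The 4 colon arrays shared one slide and the 4 rectum arrays the other, so that tissue and slide cannot be told apart. Each mouse group took the same place on both slides, and place and group cannot be told apart either. Levels are log2 intensities with the 75th percentile of the array subtracted, and a value is called below background where the scanner software did not mark the spot as well above it. In bulk mucosa, fewer cells of a type and less RNA per cell cannot be told apart.

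The labels held for the targeted gene: Il18 lay at 5.88 and 4.40 on the stress and control arrays of WT rectum and at 2.90 and 2.76 on those of WT colon, and it was below background on the 4 IL18ko arrays. The gut epithelium markers Epcam and Vil1 were well above background on every array. Of 24 squamous epithelium markers, between 18 and 20 were above background on the IL18ko rectum arrays, against 11 and 13 on the WT rectum arrays and 11 or 12 on the colon arrays. Their summed linear level was 12.4 and 8.93 times the 75th percentile in IL18ko stress and control rectum, and between 6.02 and 8.03 times on the other 6 arrays. Skeletal muscle markers summed to between 6.92 and 169.8 in rectum and to between 3.40 and 6.02 in colon. The WT stress rectum array stood apart. Without it, the test of genotype on single arrays called 3568 probes, against 32 (0.122%) with all 8 arrays. Results that rest on that array are given with and without it.

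Klk1 was the member with signal far above background on all 8 arrays, and both of its probes were lower in rectum than in colon. Probe 1 read 5.59, 5.58, 5.13 and 5.57 in rectum of IL18ko stress, IL18ko control, WT stress and WT control mice. In colon it read 6.02, 6.08, 6.22 and 6.13 in the same order. Every rectum array lay below every colon array, and WT stress rectum was the lowest of all. Probe 2 read 2.85, 2.74, 2.42 and 2.88 in rectum, against 3.12, 3.20, 3.22 and 3.15 in colon. The groups again did not overlap. Rectum arrays lay wholly below colon arrays for 14.9% of all tested probes.

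The rectum minus colon difference of Klk1 was -0.65 ± 0.13 for probe 1 (log2, SE, n = 4 pairs, limma, adjusted p = 0.0126), so that rectum had 63.8% of the colon level. For probe 2 it was -0.45 ± 0.12 (limma, adjusted p = 0.0354). Rectum was lower in 4 of 4 mouse groups by both probes, as it was for 21.5% of all tested probes. The difference of probe 1 was largest in WT stress mice, at -1.09, and smallest in IL18ko stress mice, at -0.44. Without the WT stress pair, the calls of both probes stood. Without the IL18ko control pair, the adjusted p (limma) was 0.0522 for probe 1 and 0.153 for probe 2. Without the WT control pair it was 0.0640 and 0.102, at differences of -0.68 and -0.51. Without the IL18ko stress pair it was 0.0552 for probe 2.

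**Figure D1:**
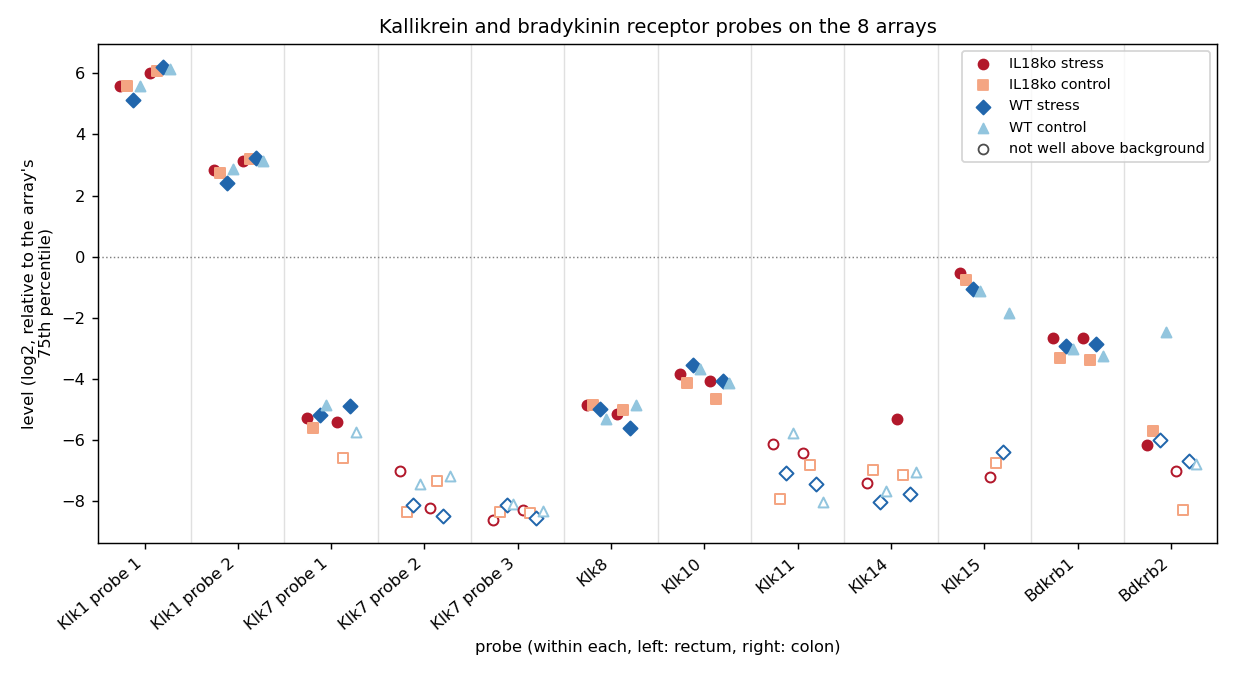
Level of each of the 12 probes (log2 relative to the 75th percentile of its array) on the 8 arrays, rectum left and colon right within each probe, with open symbols where the spot was not well above background. The 2 Klk1 probes sit lower in rectum than in colon, Klk15 is near -1 in rectum and below background on 3 of 4 colon arrays, and Bdkrb2 is high on the WT control rectum array alone.

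Klk1 ends a row of Klk1b genes, rodent duplicates of it, of which Klk1b5 is its direct neighbour. Klk1b3 is the gamma subunit of the nerve growth factor complex, a processing protease, and Klk1b4 is its alpha subunit. The bases before the start sites of Klk1 and Klk1b3 are shown here, from RefSeq on GRCm38.p6, because the duplicates have kept part of them. The window of Klk1 is chr7:44225110-44225359 and that of Klk1b3 is chr7:44197941-44198190, both on the plus strand, and the capitals mark the longest run of bases common to both, 21 in length.
Klk1: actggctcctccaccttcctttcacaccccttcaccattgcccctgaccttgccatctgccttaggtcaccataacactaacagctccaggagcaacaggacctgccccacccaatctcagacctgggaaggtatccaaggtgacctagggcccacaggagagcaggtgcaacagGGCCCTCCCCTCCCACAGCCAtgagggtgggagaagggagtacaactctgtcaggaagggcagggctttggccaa
Klk1b3: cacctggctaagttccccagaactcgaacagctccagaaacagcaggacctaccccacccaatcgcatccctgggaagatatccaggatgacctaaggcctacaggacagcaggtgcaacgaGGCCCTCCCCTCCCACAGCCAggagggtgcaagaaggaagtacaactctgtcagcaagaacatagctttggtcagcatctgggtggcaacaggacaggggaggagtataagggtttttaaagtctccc
Over 196 aligned columns the windows were identical at 83.2%. For Klk1b5 the best alignment with Klk1 was identical at 85.9% over 156 columns, and for Klk15 at 74.3% over 35 columns. Klk1b8 was identical at 75.5% over 147 columns, with a longest common run of 14 bases, and Klk1b9 at 83.1% over 166 columns, with a run of 31.

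Of the other family members, 4 Klk1b probes had levels above the 75th percentile on every array, and they were compared with Klk1. Klk1b8 read 4.13, 4.08, 3.63 and 4.19 in rectum of IL18ko stress, IL18ko control, WT stress and WT control mice, against 4.65, 4.63, 4.82 and 4.68 in colon. Its profile over the 8 arrays was the nearest to that of Klk1 probe 1 among 12713 genes, with a root mean square distance of 0.05 log2 units after each was set to its own mean. Klk1b3 was at a distance of 0.08, Klk1b4 at 0.09 and Klk1 probe 2 at 0.11. Klk1b5 was farther, at 0.36. The next genes after Klk1b8 that were not of the family were Tcea3 and Zfp821, at 0.07 each. These distances describe 8 arrays that share tissue, genotype and housing. The files give no probe sequences, and which of the related transcripts each probe bound was not tested.

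**Figure D2:**
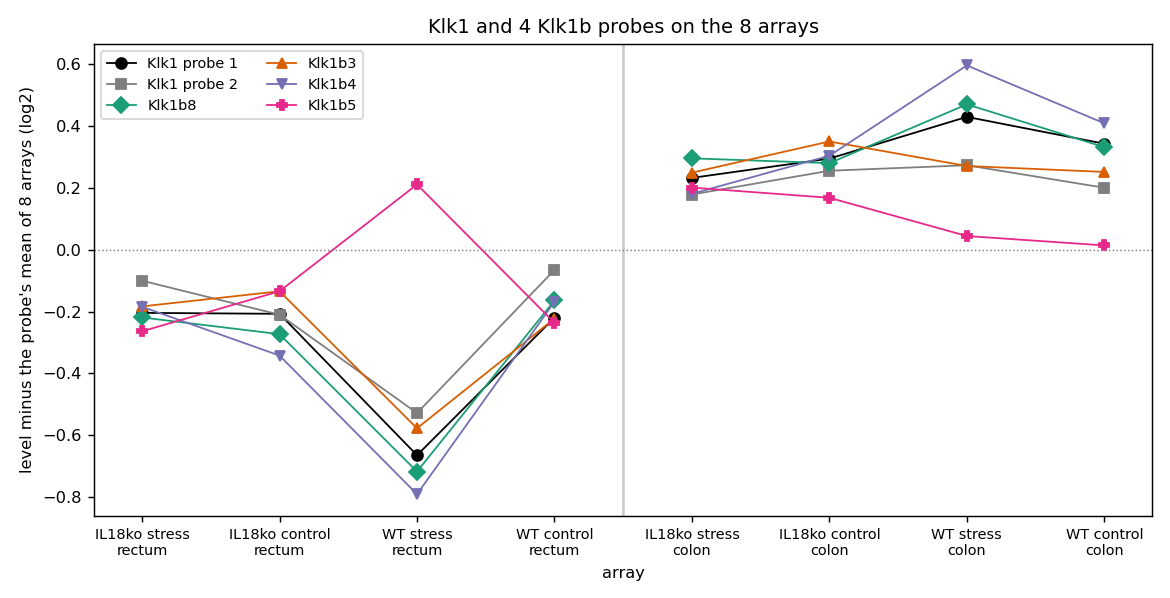
Level on each array minus the mean of the 8 arrays (log2) for both Klk1 probes and for Klk1b8, Klk1b3, Klk1b4 and Klk1b5. Every probe but Klk1b5 is lowest on the WT stress rectum array, where Klk1b5 is at the top of its rectum values.

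Klk1b3, Klk1b4 and Klk1b8 fell in rectum by 0.56 ± 0.10, 0.74 ± 0.17 and 0.69 ± 0.14 on the log2 scale (SE, n = 4 pairs; limma, adjusted p = 0.00932, 0.0214 and 0.0137). Klk1b5 differed by -0.21 ± 0.12 (limma, adjusted p = 0.235), and it was the one of these 4 that was not lower in WT stress rectum. It read 7.64 there, against 7.16, 7.29 and 7.19 on the other rectum arrays and between 7.44 and 7.63 in colon. Without the WT stress pair, Klk1b5 passed at -0.34 (limma, adjusted p = 0.00532), and with quantile normalization at -0.33 (limma, adjusted p = 0.00837). Klk1b3, Klk1b4 and Klk1b8 had adjusted p (limma) of 0.0534 to 0.0771 without the WT control pair and of 0.0558 to 0.0804 without the IL18ko control pair. Klk1b21, with an adjusted p (limma) of 0.117, differed by -0.48 ± 0.19. Of the 19 other kallikrein genes listed, 16 had a probe and 9 were tested, of which 3 fell, 0 rose and 6 did not pass, beside 29.9% of all tested genes that passed in either direction. Their median difference was -0.48, against 0.03 over all 12714 tested genes. Klk6, Klk9, Klk1b1, Klk1b9, Klk1b26, Klk1b27 and the plasma kallikrein gene Klkb1 were above background on no array.

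Klk15, a trypsin-like kallikrein first known from human prostate, had the largest tissue difference among the members. In rectum its single spot read -0.54, -0.77, -1.07 and -1.13 in IL18ko stress, IL18ko control, WT stress and WT control mice. In colon it read -1.84 in WT control mice and was below background in the other 3 groups, at -7.22, -6.76 and -6.40 in IL18ko stress, IL18ko control and WT stress mice. The tissues did not overlap, as for 15.9% of all tested probes in this direction, but WT control colon lay close to the rectum values and far from the other colon arrays. The rectum minus colon difference was 4.68 ± 0.92 (log2, SE, n = 4 pairs, limma, adjusted p = 0.0120), with rectum higher in 4 of 4 pairs. Its size is not exact, since 1 of 4 colon arrays measured the gene. Klk15 met the filter on dim probes through the rectum arrays, and its test rests on colon values below background in 3 of 4 pairs.

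Where colon was below background, a bound was set from the weakest signal that counted as above background on that array or the spot's own signal, whichever was higher. By that bound rectum was at least 48.1-fold higher in IL18ko stress mice, at least 44.4-fold higher in IL18ko control mice and at least 40.4-fold higher in WT stress mice. The WT stress colon spot was brighter than the weakest signal that counted, so that the last value is the plain difference. The limit thus varies between spots, and the bounds here and below are approximate. In WT control mice, where both tissues were measured, the difference was 0.71 log2 units. Without the IL18ko control pair the adjusted p (limma) was 0.0550, at a difference of 4.24.

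The probes that stood at least 3 log2 units above the other 3 arrays of their tissue numbered 45 on IL18ko stress colon, 60 on IL18ko control colon, 100 on WT stress colon and 109 on WT control colon. Klk15 was among the 109. Of the 8 markers of male accessory and anal glands on the array, Sbp, a gene of prostatic secretion, lay at -3.77 on WT stress rectum, -0.73 on WT control rectum, 2.00 on WT stress colon and -2.28 on WT control colon. It was below background on the 4 IL18ko arrays, and Pbsn, which encodes prostate probasin, was above background on WT control rectum alone. Svs4 and Svs5, which encode proteins of seminal vesicle secretion, were above background on the 4 rectum arrays and on no colon array. Svs5 read -2.57, -2.95, -1.02 and -3.31 in rectum of IL18ko stress, IL18ko control, WT stress and WT control mice, against -5.87, -7.54, -6.34 and -6.59 in colon. Of the 3 markers of this list that were tested, 2 passed as higher in rectum, with a list median of 3.39 (log2), beside 29.9% of all tested genes that passed. Svs4 and Svs5 met the filter on dim probes through the rectum arrays alone. The number of these markers above background was 2 on each IL18ko rectum array, 3 on WT stress rectum and 4 on WT control rectum. In colon it was 0 on each IL18ko array and 1 on each WT array. Their summed level ran from 0.167 to 0.981 in rectum and from 0.0338 to 4.02 in colon. Their part in the Klk15 signal was not tested.

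The window before the start of Klk15 is shown because the gene had the largest tissue difference among the members. It is chr7:43931425-43931674 on the plus strand of GRCm38.p6, from RefSeq, with the letters TATAAA in capitals, which begin 30 bases before the start site.
Klk15: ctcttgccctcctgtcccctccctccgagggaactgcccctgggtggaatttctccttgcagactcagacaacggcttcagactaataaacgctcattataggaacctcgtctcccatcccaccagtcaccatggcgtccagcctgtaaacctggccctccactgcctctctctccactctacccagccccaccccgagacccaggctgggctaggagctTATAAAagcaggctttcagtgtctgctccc
TATAAA was searched on both strands of the 250 bases before the start of 32851 promoters, and 12.4% held it. Among the 9 member genes with a promoter in the table, Klk15 was the one that held it. The half-site TGTTCT of steroid receptors, held by 16.1% of the promoters, occurred in those of Klk10 and Klk14 and in 1 of 2 for Klk11, and not in those of the other members in the table. A match of letters does not show that a factor binds, and their absence from the window says nothing about one. RefSeq's table had no window for Bdkrb1.

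Among the skin-type kallikreins, no tested probe passed the test between the tissues. Klk10, which in human is a gene of normal epithelial cells, was weak but above background on all 8 arrays. It read -3.84, -4.15, -3.54 and -3.69 in rectum of IL18ko stress, IL18ko control, WT stress and WT control mice, against -4.08, -4.66, -4.06 and -4.14 in colon. Rectum was higher in 4 of 4 pairs, as it was for 25.9% of all tested probes, and the difference was 0.43 ± 0.15 (log2, SE, n = 4 pairs, limma, adjusted p = 0.0748). The tissues overlapped, since IL18ko control rectum lay just under 3 of the colon arrays.

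Klk8, a trypsin-like protease also called neuropsin, ranged from -5.31 to -4.85 in rectum and from -5.61 to -4.85 in colon. The difference of 0.16 ± 0.23 did not pass (log2, SE, n = 4 pairs, limma, adjusted p = 0.660). Klk7, a chymotrypsin-like protease of shedding skin, had 3 probes that did not behave alike. Probe 1 was above background on the 4 rectum arrays, at -5.27, -5.60, -5.19 and -4.84 in IL18ko stress, IL18ko control, WT stress and WT control mice, and on the stress arrays of colon, at -5.43 in IL18ko and -4.90 in WT mice. Its colon control arrays were below background. The other Klk7 probes were below background on all 8 arrays, so that the gene rests on 1 weak probe. Klk11 was below background on every array. Klk14 was above background on IL18ko stress colon alone, at -5.30.

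In total, 3 of the 7 tested member probes passed between the tissues, 1 higher and 2 lower in rectum, beside 27.0% of all tested probes (13.0% higher and 14.0% lower). The 2 lower ones are both of Klk1, and the higher one is Klk15, which met the filter on dim probes through the rectum arrays. With the 8 arrays taken as independent, the same 3 probes passed, and 31.7% of all tested probes. The squamous markers that were high in IL18ko rectum were set beside the skin-type kallikreins. Krt5 read 0.11 and -0.52 in IL18ko stress and control rectum, against -4.60 and -3.90 in WT stress and control rectum. The markers did not all move that way: in IL18ko against WT control rectum, Krt13 read 1.18 against 1.55, Krt10 0.77 against 0.94, Krt16 -2.88 against -2.78 and Sprr1a -1.61 against -0.94, while in stress rectum these 4 read higher in IL18ko. IL18ko minus WT in stress and control rectum was 0.14 and 0.46 for Klk8, -0.30 and -0.46 for Klk10, and -0.08 and -0.76 for Klk7 probe 1. Those differences are between 1 array and 1 array and have no test.

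**Figure D3:**
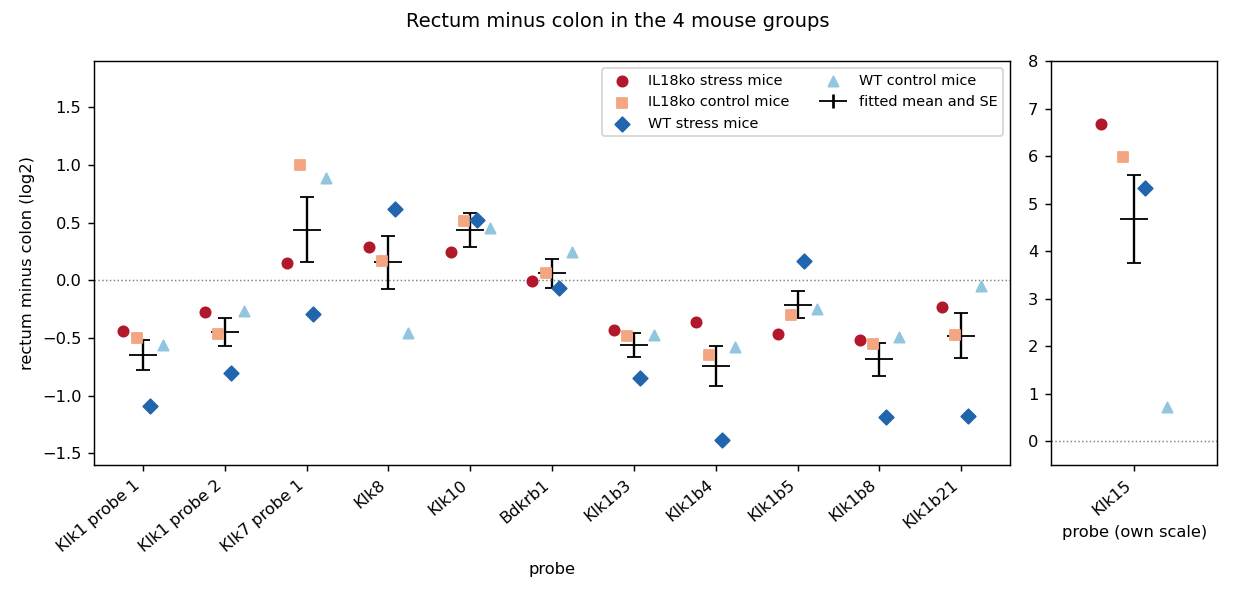
Rectum minus colon (log2) in each of the 4 mouse groups for the 7 tested member probes and 5 Klk1b probes, with the fitted mean and its SE (n = 4 pairs), and Klk15 on a scale of its own. Both Klk1 probes are below 0 in every mouse group, and the WT stress group is the lowest for each. Klk15 is above 0 in every group and smallest in WT control mice.

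The inducible receptor Bdkrb1 was above background on all 8 arrays. It read -2.66, -3.31, -2.93 and -3.01 in rectum of IL18ko stress, IL18ko control, WT stress and WT control mice, against -2.66, -3.37, -2.86 and -3.26 in colon. The tissues overlapped, and the difference was 0.06 ± 0.13 (log2, SE, n = 4 pairs, limma, adjusted p = 0.770). Bdkrb2, the receptor for intact bradykinin, had a single weak probe that was not tested. It read -2.48 on WT control rectum, -6.18 on IL18ko stress rectum and -5.72 on IL18ko control rectum. It was below background on WT stress rectum, at -6.01, and on the 4 colon arrays, at -8.30 to -6.68. WT control rectum stood at least 13.0-fold above WT control colon by the bound. Rectum over colon, with all 4 arrays of each, was at least 2.21-fold, a value that the WT control rectum array carries.

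Genotype was compared over both tissues, as IL18ko minus WT with housing as a term. Of the 7 member probes, 1 passed, beside 11.6% of all tested probes, and that probe was Klk15. It differed by -1.21 ± 0.32 (log2, SE, limma on 4 tissue means, adjusted p = 0.0286). The 4 differences between single arrays did not share a direction. IL18ko was above WT by 0.53 in stress rectum and by 0.36 in control rectum. In stress colon the difference was -0.82, with both arrays below background, and in control colon IL18ko was at least 21.1-fold lower than WT. With the 8 arrays as independent the adjusted p (limma) was 0.515. Without the WT control colon array the difference was 0.05.

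The other tested members did not pass for genotype. Klk1 differed by 0.06 ± 0.11 by probe 1 and by 0.06 ± 0.10 by probe 2 (log2, SE; limma, adjusted p = 0.791 and 0.75). Klk7 probe 1 differed by -0.56 ± 0.28 (limma, adjusted p = 0.206). It read lower in IL18ko than in WT in the 3 pairs of arrays where it was above background, and both arrays of the control colon pair were below background. Klk10 was lower in 4 of 4, at -0.33 ± 0.19 (limma, adjusted p = 0.30). All 4 pairs were lower for 13.6% of tested probes. Bdkrb1 differed by 0.02 ± 0.16 and Klk8 by 0.22 ± 0.24 (limma, adjusted p = 0.965 and 0.595). In a fit with 1 residual degree of freedom, the genotype difference of Klk15 differed between tissues by 3.31 ± 0.51 (log2, SE, rectum minus colon, limma, adjusted p = 7.17e-08). Of all tested probes, 0.426% passed. In this fit the SE and the p-value rest on variance shared across probes alone. They do not measure the spread of Klk15 between pools. Rectum minus colon was 6.68 and 5.99 in IL18ko stress and control mice, against 5.34 and 0.71 in WT stress and control mice. The value of 3.31 rests on the WT control colon array too, and no other member passed.

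Stress against control was the comparison the mice were prepared for. No member probe passed over both tissues and genotypes (0 of 7, limma on 4 tissue means), beside 0.0876% of all tested probes. By unadjusted p (limma), Klk15 (0.00262) and Bdkrb1 (0.0134) were under 0.05, and the share of all probes under it was not counted. For Klk15, stress minus control was -4.56 in WT colon, where the stress array was below background. It was -0.46 in IL18ko colon, with both arrays below background, and 0.23 and 0.07 in IL18ko and WT rectum. Over all probes, 23 were called, and 0 (0.0%) with the 8 arrays as independent.

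Bdkrb1 was higher after stress in 4 of 4 pairs of arrays, as were 8.54% of all tested probes. Stress exceeded control by 0.65 in IL18ko rectum, 0.08 in WT rectum, 0.72 in IL18ko colon and 0.40 in WT colon. The mean difference was 0.46 ± 0.16 (log2, SE, limma, adjusted p = 0.397, and 0.896 with the 8 arrays as independent). IL18ko arrays had the larger differences in both tissues, but the dependence of the stress difference on genotype did not pass (0.44 ± 0.26, limma, adjusted p = 0.9997). The genes nearest to Bdkrb1 in profile were Plekhn1, Trp53 and Rell2, at distances of 0.08, 0.12 and 0.12 log2 units.

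Klk10 was also higher after stress in 4 of 4 pairs, by 0.08 to 0.58, with a mean of 0.28 ± 0.19 (log2, SE, limma, adjusted p = 0.666). Klk7 probe 1 was higher in 3 of 4 pairs, by 0.33 in IL18ko rectum, at least 1.76-fold in IL18ko colon and at least 1.78-fold in WT colon, and differed by -0.35 in WT rectum. Its mean was 0.50 ± 0.28 (log2, SE, limma, adjusted p = 0.592). Klk8 was higher in 2 of 4 pairs and its mean was -0.14 ± 0.24 (limma, adjusted p = 0.884).

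Klk1 differed little between stress and control outside WT rectum. By probe 1 the difference was 0.00 in IL18ko rectum, -0.06 in IL18ko colon and 0.09 in WT colon. In WT rectum it was -0.44, and -0.46 by probe 2. There the stress array had 73.5% of the control level by probe 1. Klk1b8 differed in WT rectum by -0.55, Klk1b4 by -0.62 and Klk1b3 by -0.35, while Klk1b5 differed by 0.45. On the same array the smooth muscle markers summed to 485, against 579 on WT control rectum and between 709 and 719 on the IL18ko rectum arrays. The gut epithelium markers summed to 1719 there, against 1513 on WT control rectum and between 1549 and 1572 on the IL18ko rectum arrays. The part of tissue makeup in the Klk1 value was not tested. Over all arrays the stress difference of Klk1 was -0.10 ± 0.11 by probe 1 (log2, SE, limma, adjusted p = 0.802). Without the WT stress rectum array it was 0.03, and 0.02 by probe 2.

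**Figure D4:**
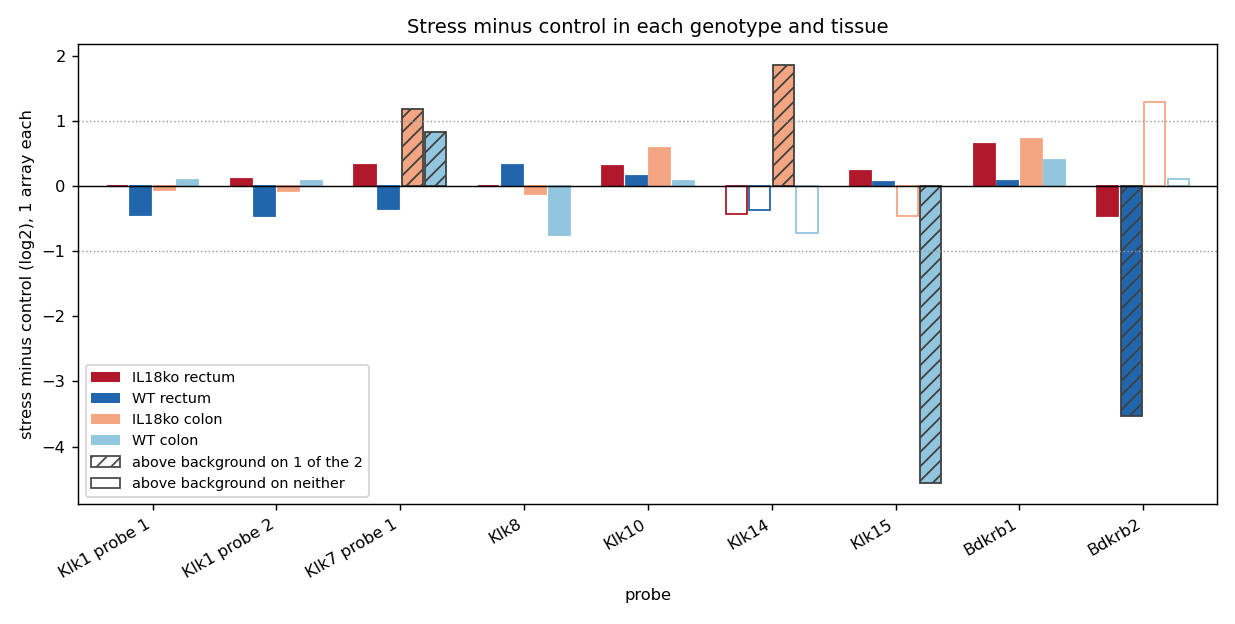
Stress minus control (log2) for 9 member probes in IL18ko rectum, WT rectum, IL18ko colon and WT colon, each bar from 1 array against 1 array, hatched where 1 of the 2 was above background and open where neither was. Bdkrb1 and Klk10 are above 0 in all 4 settings, and the long bars below 0 are Klk15 in WT colon and Bdkrb2 in WT rectum.

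Member probes with a 2-fold difference between stress and control were counted in each tissue and genotype. The count took the measured signals, which include control or stress spots below background. It was 0 of 8 in IL18ko rectum and 1 of 8 in WT rectum. In colon it was 2 of 7 in IL18ko and 1 of 7 in WT mice. In the same order, the shares over all probes measured there were 3.09%, 7.84%, 3.88% and 4.56%. Bdkrb2 was at least 11.2-fold lower on WT stress rectum than on WT control rectum. Klk15 was at least 23.6-fold lower on WT stress colon than on WT control colon. In IL18ko colon the counted probes were Klk14, at least 1.92-fold higher after stress by the bound, and Klk7 probe 1, at least 1.76-fold higher, so that by the bound neither reached 2-fold. None of these differences has a second array, and 1 array of each pair was below background. Klk7 has other probes, both below background on either array of IL18ko colon, while Bdkrb2, Klk15 and Klk14 have 1 probe each.

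In a fit with 1 residual degree of freedom, the stress difference of Klk15 differed between tissues by 2.66 ± 0.51 (log2, SE, rectum minus colon, limma, adjusted p = 0.000298). Of all tested probes, 0.19% passed. This SE and p-value too rest on variance shared across probes alone and do not measure the spread of Klk15. Between genotypes the stress difference of Klk15 differed by 2.13 ± 1.84 (limma, adjusted p = 0.9997). Stress exceeded control in rectum by 0.23 in IL18ko and 0.07 in WT mice, so that the tissue term comes from WT control colon. No other member probe passed for either term.

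The genes that supply and remove kinins were read beside the members. Kng1 and Kng2, the kininogen genes, were below background on all 8 arrays, as were Klkb1 and F11. A second Kng1 probe was left out, since its spot was marked as an outlier on the WT control colon array. F12, which encodes the plasma protease that starts the contact pathway, was above background on 2 arrays. None of these 5 genes was tested.

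Several peptidases that cut kinins differed between the tissues. Of 12 such genes, 9 had a probe and were tested: 4 rose and 1 fell in rectum, and 4 did not pass. Of those that rose, Mme met the filter on dim probes through the rectum arrays alone. The calls of Xpnpep1 and Nln did not stand without some of the pairs. The median difference of the 9 genes was 0.33, against 0.03 over all tested genes, of which 29.9% passed. Cpn1, the catalytic subunit of carboxypeptidase N, which makes the peptides that B1 answers to, read -3.06, -3.12, -3.17 and -2.97 in rectum of IL18ko stress, IL18ko control, WT stress and WT control mice, against 0.83, 0.83, 0.61 and 0.56 in colon. The tissues lay far apart, and it fell in rectum by 3.79 ± 0.12 on the log2 scale (SE, n = 4 pairs, limma, adjusted p = 9.61e-06).

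Ace, the angiotensin-converting enzyme, which destroys bradykinin, moved the other way. It read -1.21, -1.53, -1.99 and -1.70 in rectum, against -3.04, -3.18, -2.92 and -3.19 in colon, and rose by 1.48 ± 0.17 (log2, SE, n = 4 pairs, limma, adjusted p = 0.00139). A second Ace probe differed by 1.96 ± 0.32 (limma, adjusted p = 0.00524). Mme, which encodes neprilysin, another kinin-cutting enzyme, was above background on the 4 rectum arrays and on no colon array, and rectum was at least 2.50-fold higher. It met the filter on dim probes through the rectum arrays alone, and its test (limma, adjusted p = 0.000437, and 0.00323 with all signals raised to a common floor) rests on colon values below background. Xpnpep1, an aminopeptidase P, rose by 0.51 ± 0.15, and Nln, neurolysin, by 0.45 ± 0.10 (log2, SE; limma, adjusted p = 0.0445 and 0.0211). Neither call stood without the WT control, IL18ko control or IL18ko stress pair, with adjusted p (limma) of 0.0745 to 0.193, and Xpnpep1 also did not pass with quantile normalization (0.0559), the deposited ratios (0.0714), no filter on dim probes (0.0545) or no variance trend (0.0644). A second Nln probe differed by 0.41 ± 0.13 (log2, SE, limma, adjusted p = 0.0551). Ece1, Cpd, Prep and Thop1 did not pass. For genotype and for stress, 0 of these 9 genes passed.

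**Figure D5:**
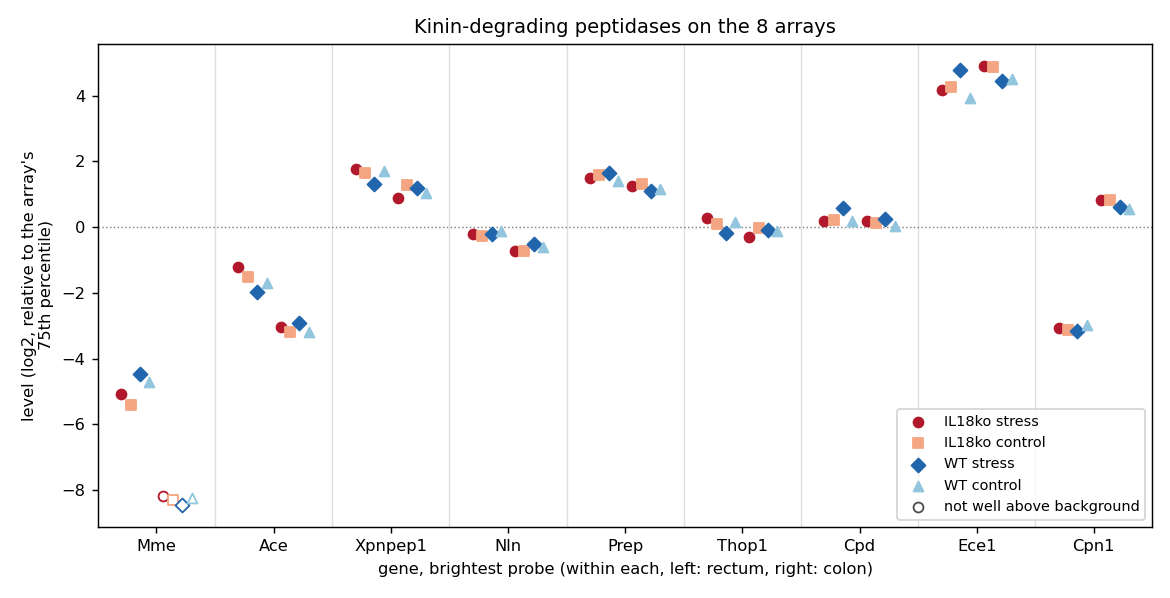
Level (log2 relative to the 75th percentile of the array) of 9 kinin-degrading peptidase genes by their brightest probe, rectum left and colon right within each gene, open where not well above background. Mme and Ace are higher in rectum and Cpn1 is lower in rectum in each of the 4 mouse groups.

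Of 17 protease inhibitor genes, 11 were tested between the tissues: 4 rose, 0 fell and 7 did not pass, beside 29.9% of all tested genes that passed. Wfdc2 rose by 1.27 ± 0.14 and Slpi, an inhibitor of leukocyte elastase, by 1.20 ± 0.19 (log2, SE, n = 4 pairs; limma, adjusted p = 0.00101 and 0.00491). A second Slpi probe was below background on every array. Among 7 other epithelial serine proteases, Hpn, hepsin, rose by 0.88 ± 0.17 and Tmprss2 by 0.86 ± 0.14 (limma, adjusted p = 0.00999 and 0.00520). A second Hpn probe did not pass, at 0.55 ± 0.24, and a second Tmprss2 probe did, at 0.76 ± 0.14 (limma, adjusted p = 0.139 and 0.0104). Of the cornified junction genes, Pkp1, a plaque protein of desmosomes, rose by 1.28 ± 0.10, and the lysosomal protease gene Ctsl by 0.80 ± 0.15 (limma, adjusted p = 0.000316 and 0.00895). Without the WT control pair the adjusted p (limma) was 0.0611 for Hpn and 0.0552 for Ctsl. Dsg1b and Dsc1, desmosome genes whose products skin kallikreins cut, were below background on all arrays. The receptors that proteases cut, F2r and F2rl1, did not pass, at -0.06 ± 0.26 and -0.02 ± 0.16 (log2, SE; limma, adjusted p = 0.895 and 0.940).

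For genotype, 5 of the 11 tested inhibitor genes passed, 3 higher and 2 lower in IL18ko, beside 13.0% of tested genes. The acute-phase serpin Serpina3n was higher in IL18ko in 4 of 4 pairs, by 1.09 ± 0.20 (log2, SE, limma on 4 tissue means, adjusted p = 0.00521). Serping1, which encodes the C1 inhibitor that also blocks plasma kallikrein, rose by 0.42 ± 0.10 (limma, adjusted p = 0.0198), and Serpina3c by 0.81 ± 0.24 (limma, adjusted p = 0.0457). Serping1 was higher in IL18ko in 4 of 4 pairs, by 0.08 to 0.71. The share of all tested probes higher in 4 of 4 pairs was not counted, and 13.6% were lower in 4 of 4. Serpina3c was higher in 3 of 4 and above background on 2 of 4 rectum arrays. Serpinb6a fell by 0.42 ± 0.11 and Slpi by 0.40 ± 0.10 (limma, adjusted p = 0.0262 and 0.0254). Serpinb6a was higher in IL18ko in 0 of 4 pairs and Slpi in 1 of 4, and the second Slpi probe was below background on every array. Of the epithelial proteases, Tmprss4 fell by 0.78 ± 0.11 and Hpn by 0.37 ± 0.11 (limma, adjusted p = 0.00101 and 0.0355). Tmprss4 was higher in IL18ko in 0 of 4 pairs and Hpn in 1 of 4. A second Hpn probe did not pass, at -0.39 ± 0.17 (limma, adjusted p = 0.161). With the 8 arrays as independent none of these 7 calls stood, at adjusted p (limma) of 0.0806 for Serpina3n, 0.0870 for Tmprss4 and 0.114 to 0.267 for the other 5. None of the listed genes passed for stress. In single comparisons of stress with control, 0 of 40 measured list genes in IL18ko rectum and 0 of 37 in WT rectum reached 2-fold by the measured signals, as did 2 of 39 in IL18ko colon and 4 of 40 in WT colon. Over all measured probes the shares were 3.09%, 7.84%, 3.88% and 4.56%. F2rl3, a thrombin receptor, was at least 1.88-fold higher after stress in IL18ko colon, a bound under 2-fold, and at least 2.03-fold higher in WT colon, and its control arrays were below background. The other gene in IL18ko colon was Serpinf2, the gene of alpha-2-antiplasmin, at -1.05 (log2, stress minus control). In WT colon, F12 was at least 2.59-fold higher after stress, Cdsn, which encodes corneodesmosin, differed by 1.12 and Serpina3c by -1.28.

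Members were also set against all named genes by profile. Nearest to Klk10 were Oprl1, Tex19.2 and Rhox4e, at distances of 0.08 to 0.09 log2 units. Nearest to Klk7 were Olfr398, Olfr126 and A930018P22Rik, at 0.23 to 0.24. For Klk15 the nearest genes, Il13ra2, S100a9 and S100g, were at 1.40 to 1.45, so that none of the genes ranked followed it closely. Each distance is the root mean square difference over 8 arrays between profiles set to their own means.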

How the data were processed

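The members and the gene lists were chosen with earlier results of these data known. The authors deposited 1 scanner file per array with a linear intensity per spot, corrected for background by Feature Extraction 9.5.1.1, per the file headers (array design on mm7). Per the labels, the values the authors deposited in a table are ratios of each array to WT control colon, with scaling and centring not stated. In log2 they followed the scanner ratios over 18299 features with r from 0.995 to 0.999. Flags marking spots well above background or outlying were used as deposited, per the file headers. The value table had 0 columns of other samples.

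Outlier spots were dropped and spots averaged per probe, which left 40963 of 41174 probes. The log2 intensity was set relative to the array's 75th percentile. Probes above background on 4 or more arrays were tested. Its gene came from its accession through RefSeq, and the brightest probe stood for a gene in lists. Tissues were compared through 4 pairs of arrays, and genotype and stress on 4 tissue means with 1 residual degree of freedom, where SEs rest mostly on variance shared across probes. The labels do not say that both tissues came from the same mice. Tests used limma 3.58.1 with a variance trend and Benjamini-Hochberg adjustment over 26263 probes (threshold 0.05). Pooled RNA is measured once per group, so p-values cover only the spread between these pools. In the fits of a genotype or stress difference by tissue, they do not cover the spread of the single probe. The number of arrays limits the precision.

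Named were all member probes, and of the lists up to 10 called genes with the largest difference per tested comparison and up to 4 with at least 2-fold in single comparisons, further examples being picked after their values were seen. The nearest profiles were the 3 closest genes, and those of Klk8 are not reported here. Alternatives were quantile normalization, median centring, normexp (offset 50), a common floor, the deposited ratios, other filters, no variance trend, 8 independent arrays and leaving out arrays. Normexp used median signals and left out spots more than 50 units under background, a choice made after seeing the data. The fits were tested on simulated data, where effects were recovered, but the fits with 1 residual degree of freedom called more unchanged probes than the threshold allows. R 4.3.3, Python 3.11.15, numpy 2.4.6, pandas 2.3.3, biopython 1.88 and matplotlib 3.10.9 were used.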

Additional observations from a re-analysis of the deposited data

Results flagged for a closer look

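Among 16 sets of 4 arrays of a tissue, 4 held an array whose gap to its nearest neighbour took an unusually large share of the range, where chance gives about 1 in 20. The 4 arrays of a set are different mouse groups, not replicates. For Klk1 probe 1, WT stress rectum was the lowest rectum array with a gap of 0.966 of the range. For Klk10, IL18ko control colon was the lowest colon array, at 0.867. For Klk15, WT control colon was the highest colon array, at 0.848, and for Bdkrb2, WT control rectum was the highest rectum array, at 0.876. Klk1 probe 2 was also lowest in WT stress rectum, at 2.42 against 2.74 to 2.88 on the other rectum arrays, but was not among those flagged. Klk1b8, Klk1b3 and Klk1b4 were lowest there too, and which of the related transcripts each probe bound was not tested. Klk15 and Bdkrb2 each have a single probe.

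In fits with 1 residual degree of freedom, the genotype and stress differences of Klk15 differed between tissues. For IL18ko minus WT the rectum difference minus the colon difference was 3.31 log2 units, with 0.53 and 0.36 in stress and control rectum against -0.82 and -4.92 in stress and control colon. For stress minus control it was 2.66, with 0.23 and 0.07 in IL18ko and WT rectum against -0.46 and -4.56 in IL18ko and WT colon. The colon differences were thus the larger in size and of the opposite sign, and they include arrays below background. Both tests passed, but their SEs rest on variance shared across probes alone and do not measure the spread of Klk15 between pools. Both values rest on the WT control colon array.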

How the results depend on the processing

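The tissues were compared in pairs by mouse group. By replicate number, no paired analysis was possible because each group has 1 array. Rectum minus colon called 3 of 7 member probes and 7095 probes. Leaving out pairs gave 0 to 3 member probes and 3478 (without WT control) to 10577 (without WT stress) probes, with 3733 without IL18ko control. IL18ko minus WT called 1 member probe, and 0 under quantile normalization, median centring, normexp, a common floor, no filter, a filter on all 8 arrays, no variance trend, 8 independent arrays and each left-out array. Over all probes it called 3047, against 1941 after median centring (31.6% higher in IL18ko, against 53.4%), 2 without a filter, 18 without a trend and 32 with independent arrays. Leaving out arrays from that last fit gave 6 to 3568, the latter without WT stress rectum. Stress minus control called 23 probes, against 4 with quantile normalization, 2 with median centring (50% higher after stress, against 73.9%), 43 with normexp, 44 with a common floor (61.4% higher), 180 with deposited ratios, 81 above background on all 8 arrays, and 0 without a filter, without a trend, with independent arrays and with any array left out. Deposited ratios called 1 member probe for stress, Klk15, and arrays left out gave 0.

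The genotype difference by tissue called 112 probes, against 30 with deposited ratios, 396 without a filter, 46 above background on all 8 arrays and 199 without a trend. The stress difference by tissue called 50, against 8, 247, 11 and 93 under the same settings. Klk15 was the member probe called in both, and 0 were called with the filter on all 8 arrays, which removes it, or, for stress, with normexp. Normexp moved the share higher in rectum to 56.1% for genotype, against 79.5%, and to 50% for stress, against 36.0%. The stress difference by genotype called 0 probes, and 0 to 507 with an array left out (507 without WT stress colon), of which 0 were members. At 1.5-fold, 1 member probe differed after stress in IL18ko rectum and 3 in WT colon. Counts at 2-fold were 0 in IL18ko colon with normexp, for which the cause was not tested. They were 0 in WT rectum, IL18ko colon and WT colon where both arrays had to be above background, which removes the counted probes. They were also 0 in WT rectum and IL18ko colon with deposited ratios, which cover 3 and 2 of the member probes there and none of those counted, so that this setting does not bear on them.

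Differences that changed sign were small, apart from those of Klk15. For IL18ko minus WT, median centring gave -0.019 and -0.015 for the Klk1 probes and -0.061 for Bdkrb1, quantile normalization gave -0.060 for Bdkrb1, and left-out arrays gave -0.073 to 0.15 and -0.053 to 0.13 for Klk1, -0.072 to 0.12 for Bdkrb1 and -1.98 to 0.049 for Klk15. For stress minus control, normexp gave 0.076 for Klk8, and left-out arrays gave -0.20 to 0.026 and -0.16 to 0.024 for Klk1, -0.27 to 0.036 for Klk8 and -1.95 to 0.078 for Klk15. For the stress difference by genotype they gave -0.15 to 0.45 and -0.021 to 0.44 for Klk1 and -0.51 to 4.78 for Klk15. For Bdkrb1, rectum minus colon ran from -0.0033 to 0.10. Between tissues, Klk1 probe 2 had an adjusted p (limma) of 0.0504 after median centring, 0.0922 with deposited ratios and 0.0580 without a trend, and Klk10 one of 0.0376 without a trend. Signal over background limits Klk7, Klk8, Klk11, Klk14 and Bdkrb2.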
